A study of Oryza sativa Japonica Group with 12 samples.

Results

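The transcript levels of rice seedlings of the line raf-b2/3 with and without mannitol, an osmotic stress, were compared across all loci that these seedlings expressed. The 3 raf-b2/3 libraries made after mannitol were set against the 3 raf-b2/3 libraries made without it. A locus was a member if its FPKM, the number of fragments scaled to gene length and library size, was 1 or more in at least 3 of those 6 libraries. By this rule 21640 of the 29358 loci in the deposited table were members. The same filter on the 6 wild-type (WT) libraries keeps 21409.

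Whole seedlings 5 days old (Oryza sativa, Japonica group; the WT is labelled NIP) were profiled by paired-end RNA sequencing in 4 groups of 3 libraries. In order these are raf-b2/3 with 6 hours of 800 mM mannitol, raf-b2/3 without mannitol, WT with mannitol and WT without mannitol. The genotype label calls raf-b2/3 a knockdown of B2/3 RAF and the protocols call it a mutant; neither names the affected loci, the allele or how it was made. The labels do not say whether the control seedlings were sampled before the treatment or after 6 hours without mannitol, so mannitol and the time of sampling cannot be told apart. Nothing in the labels says whether the 3 libraries of a group were grown or extracted apart, so the tests rest on a spread that may be technical.

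B2 and B3 RAFs are protein kinases that, in Arabidopsis and in rice, phosphorylate and activate SnRK2 kinases when cells lose water or sense abscisic acid (ABA). Active SnRK2 kinases phosphorylate transcription factors that switch on genes for protective proteins and osmolytes, while clade A PP2C phosphatases hold the SnRK2 kinases off until ABA receptors bind them. Mannitol is a sugar alcohol that plants take up poorly, so it draws water out of the tissue.

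Between 37534836 and 39792489 fragments per raf-b2/3 library were recovered from the steps in the FPKM values. Pearson's r across genes was 0.984 to 0.989 among the 3 raf-b2/3 mannitol libraries, 0.988 to 0.989 among the 3 raf-b2/3 control libraries and 0.891 to 0.917 between these groups. A pair of libraries stood apart in the levels of some genes. WT control 2 had a summed FPKM of 124.6 over the 6 root markers in the table, against 466.5 and 516.3 in the other WT control libraries. The library raf-b2/3 mannitol 3 held the highest levels of several LEA genes in its group. Its r with the WT mannitol libraries was 0.976 to 0.981, against 0.966 to 0.974 for raf-b2/3 mannitol 1 and 2. Within the group, r was lowest for raf-b2/3 mannitol 1 (0.984 and 0.987, against 0.989 between raf-b2/3 mannitol 2 and 3). With WT control 2 and raf-b2/3 mannitol 3 left out, 1740 genes were higher and 1134 lower in raf-b2/3 by the limits given below, against 1663 and 1094 with all libraries. A 7-gene list of shoot markers summed to 15000 to 17820 FPKM in raf-b2/3 mannitol seedlings and to 23350 to 26260 in raf-b2/3 control seedlings. Transcripts of the seed storage proteins GLUA1 and GLUA2 summed to 2.94 to 3.66 FPKM in raf-b2/3 mannitol seedlings and to 2.55 to 2.92 FPKM in raf-b2/3 control seedlings.

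The Raf-like kinase gene DSM1 (LOC_Os02g50970), whose loss is known to make rice sensitive to drought, had FPKM values of 10.6, 9.26 and 10.6 in raf-b2/3 mannitol seedlings and of 8.87, 9.54 and 8.91 in raf-b2/3 control seedlings. These groups overlapped, and the log2 change of 0.14 (SE 0.07, limma adjusted p 0.11) did not pass the test. Its levels in WT were 21.9, 21.7 and 22.7 FPKM with mannitol and 22.8, 19.9 and 22.4 FPKM without. DSM1 was lower in raf-b2/3 than in WT by a log2 difference of -1.06 with mannitol and -1.16 without (limma adjusted p 4.8e-06 and 3.3e-06). Across all members 15.7% and 1.73% differed between the genotypes with and without mannitol. Because the labels name no targeted locus, this level does not check them.

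The response was broad. Of the members, 13628 (63%) changed after mannitol, 7786 (36%) higher and 5842 (27%) lower, at a Benjamini-Hochberg adjusted p under 0.05 by limma-trend on log2(FPKM + 1). With a log2 change of at least 1 required as well, 2757 remained (12.7%), 1663 higher (7.68%) and 1094 lower (5.06%). A log2 change of at least 2 was reached by 331 higher and 128 lower genes, of at least 3 by 50 and 32, and of at least 4 by 11 and 12. The median log2 change of all members was 0.07, and it was 0.01 under median-of-ratios scaling and -0.01 under quantile normalization. The split between higher and lower genes depended on the method: limma-voom on the recovered fragments called 2041 higher and 2021 lower. At a p under 0.05, not stated to be adjusted or raw, and a log2 change of at least 1, the authors' deposited table holds 2060 higher and 1980 lower loci, and the 2718 loci called in both are 67.3% of the authors' calls and 98.6% of the 2757. Among loci with a mean FPKM of 100 or more, 6.76% were higher and 9.6% lower by the same threshold, whereas 8.26% and 4.62% were among loci with a mean of 3 to 10. The 10 most abundant loci took 4.91% to 5.69% of all FPKM in raf-b2/3 mannitol libraries and 6.59% to 7.29% in raf-b2/3 control libraries.

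The filter itself shapes the counts at low levels. Of 481 loci that reached an FPKM of 1 in every raf-b2/3 mannitol library and in no raf-b2/3 control library, 277 were called higher, and of 405 with the opposite pattern 173 were called lower; such loci could only differ in that direction, so these counts support nothing. Among the 19189 loci at 1 FPKM or more in all 6 libraries, 6.14% were higher and 4.27% lower. Just inside the rule lay 1062 loci that met it in exactly 3 libraries, with a median mean level of 1.17 FPKM, and just outside lay 554 that reached 1 FPKM in exactly 2 libraries, with a median of 0.83 FPKM.

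Named genes come from 46 lists, in which 473 genes with a name were members. Of these, 214 were higher and 125 lower at the adjusted p, counts that include genes that met the filter through the libraries of a single group. Among the 473, 14 met the filter through the mannitol libraries alone and 4 through the control libraries alone; where the text names one it gives the levels with no test of the mannitol response, and the counts for the lists below set them aside. The other counts for each list should be read against the 36% and 27% of all members. Those shares still include loci that met the filter through the libraries of a single group, so the match is not exact.

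**Figure D1:**
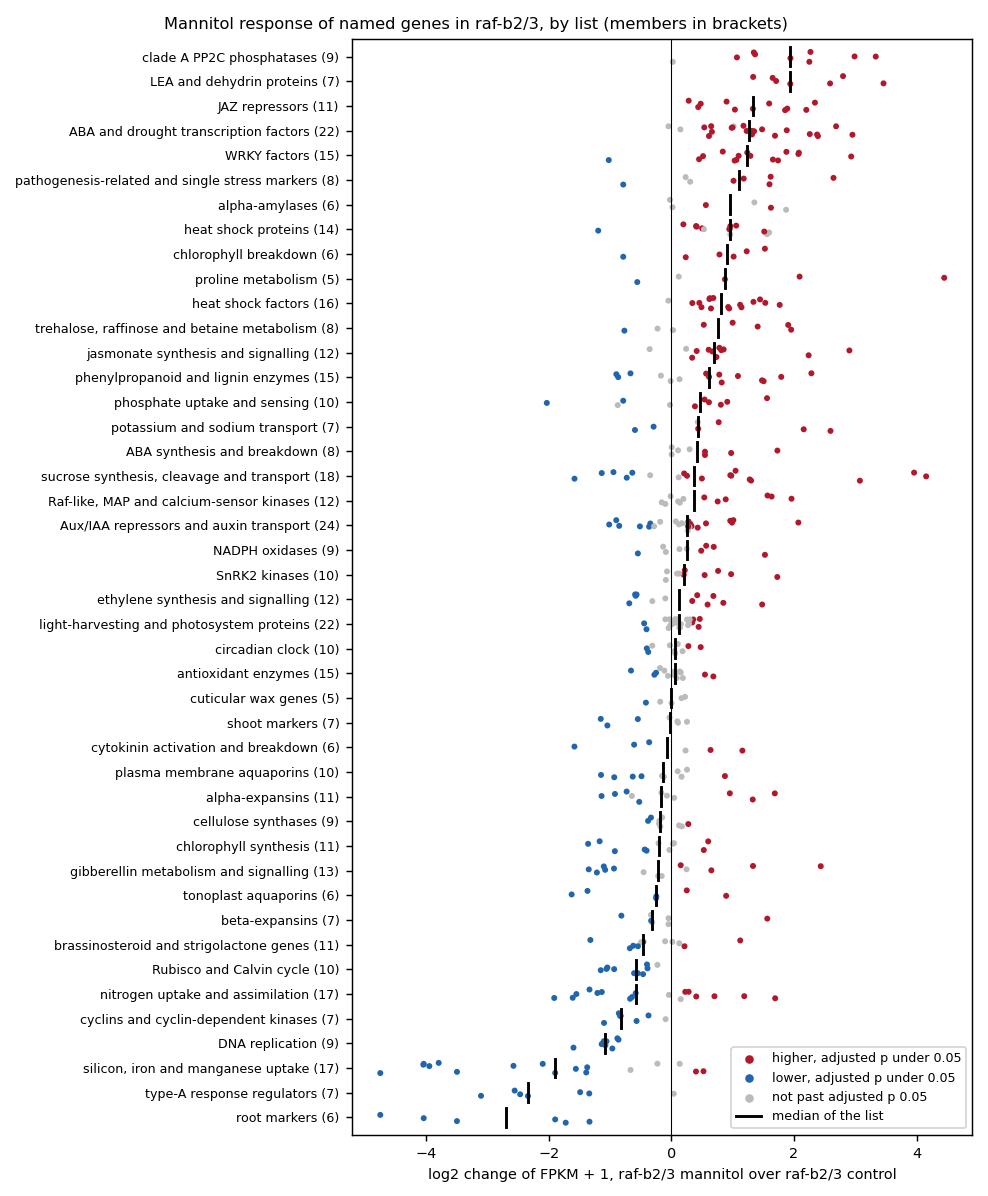
Log2 change of FPKM + 1 in raf-b2/3 seedlings, mannitol over control, for every member of the lists with at least 5 members (number in brackets); each point is a gene, coloured by direction where the limma adjusted p was under 0.05, and the bar is the list's median. Over all their members, clade A PP2C genes and LEA genes have medians of 1.94 and root markers a median of -2.70. Members that met the filter through the mannitol or the control libraries alone are drawn and coloured too. Without them the clade A PP2C and LEA medians are 1.94 and 1.82.

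The largest rises among the named genes were in sugar and proline metabolism. PRODH (LOC_Os10g40360) encodes proline dehydrogenase, which starts the breakdown of proline. Its FPKM was 92.7, 74.9 and 69.8 in raf-b2/3 mannitol seedlings and 2.16, 3.39 and 2.47 in raf-b2/3 control seedlings. The groups lay far apart, and the log2 change was 4.45 (SE 0.18, limma adjusted p 5.8e-09). P5CS2 (LOC_Os01g62900), an enzyme of proline synthesis, rose as well, to 39, 44.9 and 36.5 FPKM with mannitol, against 9.6, 8.15 and 8.17 FPKM without (log2 2.09). P5CR, which makes the last step of proline synthesis, fell to 10.8 ± 0.54 FPKM with mannitol, against 16.3 ± 0.09 FPKM without (SD, n = 3 each; log2 -0.56). P5CS1 stood at 43.7 FPKM with mannitol and 40.2 FPKM without on average and did not pass the test (log2 0.12). Of the 5 members of this list, 3 were higher and 1 lower.

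INV3 (LOC_Os02g01590), a vacuolar invertase that splits sucrose into hexoses, had FPKM values of 70.7, 38.6 and 68.2 in raf-b2/3 mannitol seedlings and 1.86, 2.06 and 2.96 in raf-b2/3 control seedlings. Its log2 change was 4.16 (SE 0.22, limma adjusted p 4.0e-08), and raf-b2/3 mannitol 2 was the lowest of the mannitol libraries. SWEET15 (LOC_Os02g30910), which exports sucrose across the plasma membrane, rose to 23.7, 32.2 and 38.3 FPKM, against 1.44, 0.642 and 1.14 FPKM in the controls (log2 3.96). SWEET2B (LOC_Os01g50460), of the same transporter family, rose to 104, 59 and 68.6 FPKM with mannitol, against 6.36, 10.2 and 7.9 FPKM without (log2 3.07). In the opposite direction, SUS1 (LOC_Os03g28330), a sucrose synthase and one of the most abundant transcripts of the list, fell to 537, 540.0 and 511 FPKM with mannitol, against 1469, 1768 and 1530 FPKM without (log2 -1.58). The cell wall invertase gene CIN2 fell to 13.1 ± 4.13 FPKM with mannitol, against 29.4 ± 3.65 FPKM without (SD, n = 3 each; log2 -1.14). Over the whole list of sucrose synthesis, cleavage and transport, 11 of 18 members were higher and 5 lower, with a median log2 change of 0.38, against 0.07 over all members. Under the other settings tried, 8 to 11 were higher and 5 to 6 lower.

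Genes for other compatible solutes showed a mixed picture. TPP2 (LOC_Os10g40550), a trehalose-phosphate phosphatase, rose to 12.7, 9.45 and 5.78 FPKM, against 1.11, 2.17 and 1.49 FPKM in the controls (log2 1.95). GOLS2 (LOC_Os07g48830), which makes galactinol for raffinose synthesis, rose to 12.2, 12.4 and 12.3 FPKM with mannitol, against 2.49, 3.49 and 1.87 FPKM without (log2 1.91). TPS1, a trehalose-phosphate synthase, fell to 9.2, 9.54 and 9.8 FPKM, against 17.5 FPKM in the highest and 16.2 FPKM in the lowest control library (log2 -0.77). GOLS1 stood at 4.92 FPKM with mannitol and 5.87 FPKM without on average and did not pass the test. In this list 5 of 8 members were higher and 1 lower.

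Starch-degrading alpha-amylases showed what the spread between libraries can do. AMY1A (LOC_Os02g52710) had FPKM values of 29, 767 and 710.3 in raf-b2/3 mannitol seedlings and of 844, 236 and 0.67 in raf-b2/3 control seedlings. The groups overlapped across their whole range, and the log2 change of 1.87 had an SE of 1.95 (limma adjusted p 0.42). AMY3D, expressed far lower, was at 3.44, 2.91 and 1.85 FPKM with mannitol and at 0.404, 0.0967 and 0.0993 FPKM without, and it met the filter through the mannitol libraries alone. Of the other 5 amylase members 1 was higher and none lower. AMY1A is named after its values were seen.

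**Figure D2:**
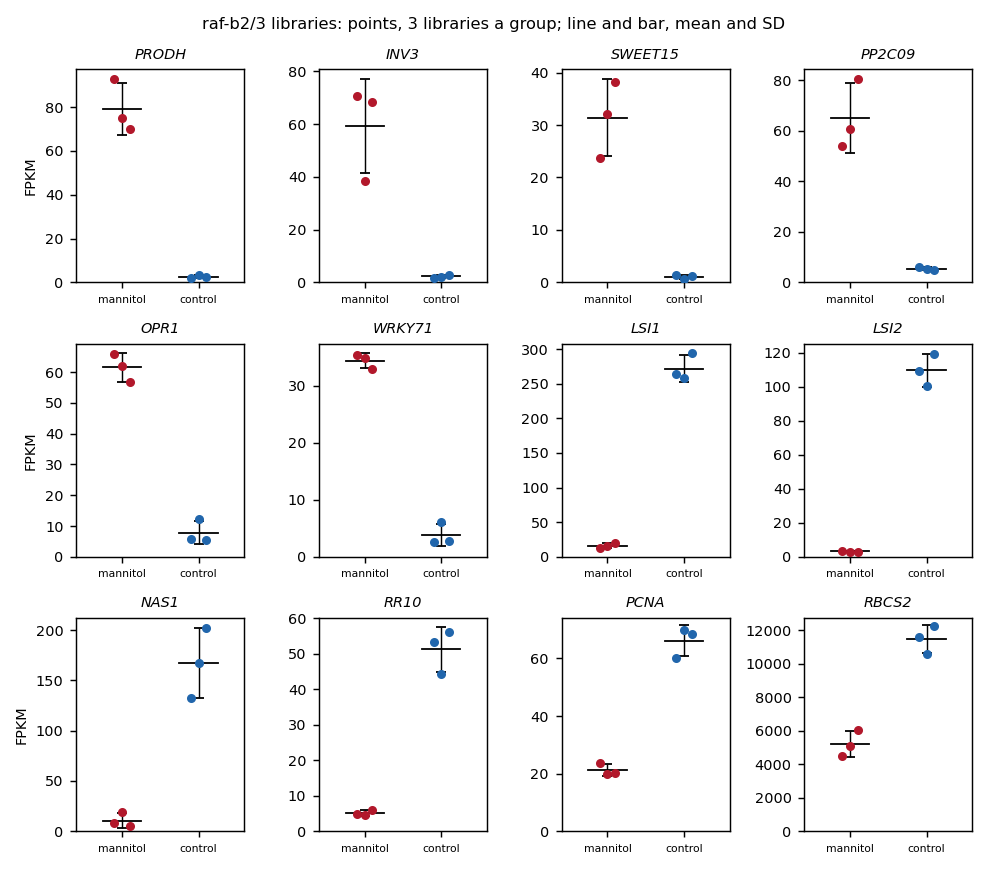
FPKM of 12 genes in the 3 raf-b2/3 mannitol libraries (left in each panel) and the 3 raf-b2/3 control libraries (right), with mean and SD; each axis starts at 0 and has its own scale. PRODH, INV3, SWEET15, PP2C09, OPR1 and WRKY71 are higher with mannitol and LSI1, LSI2, NAS1, RR10, PCNA and RBCS2 are lower.

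The largest falls among the named genes were in genes that roots use to take up minerals. LSI2 (LOC_Os03g01700), which moves silicon out of root cells towards the xylem, had FPKM values of 3.55, 2.95 and 2.88 in raf-b2/3 mannitol seedlings and of 109, 100 and 120 in raf-b2/3 control seedlings. Its log2 change was -4.75 (SE 0.46, limma adjusted p 3.1e-06). LSI1 (LOC_Os02g51110), the silicon channel of the root surface, fell to 12, 15.9 and 19.7 FPKM with mannitol, against 264, 258 and 294 FPKM without (log2 -4.04). LSI3 (LOC_Os10g39980) was at 0.666, 0.608 and 1.08 FPKM with mannitol, near the level at which a locus counts as expressed, and at 24.9, 25.6 and 28.6 FPKM without (log2 -3.95). For these 3 silicon transporters every mannitol library lay below every control library, which held for 29.3% of all members. A further silicon transporter gene of the list is not described here.

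Iron acquisition genes of the strategy used by grasses, in which roots secrete a chelator and take up the iron complex, fell together. NAS1 (LOC_Os03g19427) and NAS2 (LOC_Os03g19420) make nicotianamine, the precursor of that chelator; they are near-identical neighbours that may share reads. NAS1 was at 7.73, 18.6 and 4.96 FPKM in raf-b2/3 mannitol seedlings and at 133, 168 and 202 FPKM in raf-b2/3 control seedlings (log2 -4.04), and NAS2 fell by a similar amount (log2 -3.79). NAAT1, the next enzyme, fell to 5.06, 8.28 and 6.97 FPKM with mannitol, against 39.1, 42.8 and 53.2 FPKM without (log2 -2.58), and DMAS1, which completes the chelator, averaged 9.21 FPKM with mannitol and 42.7 FPKM without (log2 -2.10). YSL15 (LOC_Os02g43410), which imports the iron complex, fell to 2.5, 2.94 and 1.15 FPKM with mannitol, against 30.3, 27.3 and 47.2 FPKM without (log2 -3.50, SE 0.70, limma adjusted p 9.3e-04). The transporter YSL16 and the iron storage gene FER1 rose slightly, by log2 changes of 0.52 and 0.40. Over silicon, iron and manganese uptake, 1 of 17 members met the filter through the control libraries alone; of the other 16, 11 were lower and 2 higher.

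Nitrogen genes moved in both directions. AMT1.3, an ammonium transporter, fell to 0.466, 0.296 and 1.03 FPKM in raf-b2/3 mannitol seedlings, against 4.58, 6.03 and 4.24 FPKM in raf-b2/3 controls (log2 -1.91). NADH-GOGAT2, a glutamate synthase, fell to 1.54, 2.28 and 1.78 FPKM with mannitol, against 9.53, 5.38 and 8.77 FPKM without (log2 -1.61). GDH2 (LOC_Os04g45970), a glutamate dehydrogenase that can release ammonium from glutamate, rose to 93.2, 95.9 and 72.3 FPKM with mannitol, against 25, 27.9 and 25.4 FPKM without (log2 1.69). The nitrate transporter gene NRT1.1B averaged 15.6 ± 2.39 FPKM with mannitol and 6.25 ± 0.54 without (SD, n = 3 each; log2 1.19). In all, 9 of 17 nitrogen genes were lower and 6 higher, with a median log2 change of -0.58. Under the other settings tried, 9 were lower and 4 to 6 higher. Among phosphate genes, PHO1-2, which loads phosphate into the xylem, fell to 3.83 ± 0.94 FPKM with mannitol, against 18.5 ± 1.24 FPKM without (SD, n = 3 each; log2 -2.03), while the uptake transporter PT8 rose to 50.9, 47.6 and 39.9 FPKM with mannitol, against 12.6, 16.4 and 16.1 FPKM without (log2 1.56). Of 10 phosphate genes 6 were higher and 2 lower.

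The HKT sodium transporter genes HKT2-1 and HKT1-1 rose. HKT2-1 (LOC_Os06g48810), which takes up sodium in potassium-poor roots, was at 22.4, 12 and 18.7 FPKM in raf-b2/3 mannitol seedlings and at 1.8, 2.5 and 1.77 FPKM in raf-b2/3 control seedlings (log2 2.60). HKT1-1 (LOC_Os04g51820), which retrieves sodium from the vascular stream, was at 16, 9.36 and 12.1 FPKM with mannitol and at 1.87, 3.49 and 1.01 FPKM without (log2 2.16). SOS1, a plasma membrane sodium exporter, fell to 20.8 ± 2.16 FPKM with mannitol, against 31.8 ± 1.03 FPKM without (SD, n = 3 each; log2 -0.59). A further gene of the family, HKT1-5, lay below the filter, was not tested and is named after its values were seen. It was at 0.0246, 0 and 0.0364 FPKM with mannitol and at 0.74, 0.453 and 0.834 FPKM without. Of 7 potassium and sodium genes 4 were higher and 2 lower, and NHX1, one of the lower ones, no longer passed without raf-b2/3 control 2 (log2 -0.29 with all libraries and -0.24 without it, limma adjusted p 0.0522).

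Most of the aquaporin genes, whose proteins let water cross membranes, either fell or did not pass the test. PIP2-6 averaged 86 ± 11.9 FPKM in raf-b2/3 mannitol seedlings and 164 ± 12.6 in raf-b2/3 controls (SD, n = 3 each; log2 -0.93), and PIP2-3 fell to 5.88, 6.17 and 7.17 FPKM with mannitol, against 14.2, 15.3 and 16.8 FPKM without (log2 -1.15). PIP1-3 rose to 52.1, 66.3 and 70.6 FPKM with mannitol, against 43.1, 32.3 and 27.4 FPKM without (log2 0.87). In the vacuolar membrane, TIP2-1, a gene of the root, fell to 7.75, 8.41 and 5.65 FPKM with mannitol, against 25.8, 19.5 and 28.4 FPKM without (log2 -1.63). Of 10 plasma membrane aquaporins 4 were lower and 1 higher, and of 6 tonoplast aquaporins 4 were lower and 2 higher. The tonoplast counts are unstable, with 2 lower when raf-b2/3 mannitol 2 was left out and 1 higher when raf-b2/3 mannitol 3, raf-b2/3 control 1 or raf-b2/3 control 3 was.

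Root markers moved with these uptake genes. All 6 in the table fell, with a median log2 change of -2.70, and their summed FPKM was 63.6 to 93.03 in raf-b2/3 mannitol seedlings and 568.2 to 678.8 in raf-b2/3 control seedlings. Among the 6, 5 are themselves uptake genes of the lists above. The other, RCC3, was at 71, 58.3 and 36.1 FPKM with mannitol and at 168, 166 and 200.4 FPKM without (log2 -1.72). In RNA from whole seedlings, fewer cells of a type and less RNA per cell cannot be told apart, and the part of root tissue in these falls was not tested. RCC3 is named outside the naming rule, after its values were seen.

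The phosphatases that restrain ABA signalling rose strongly in raf-b2/3. PP2C09 (LOC_Os01g62760) had FPKM values of 53.8, 60.7 and 80.6 in raf-b2/3 mannitol seedlings and of 6.18, 5.35 and 4.91 in raf-b2/3 control seedlings (log2 3.33, SE 0.12, limma adjusted p 2.6e-09). PP2C68 (LOC_Os09g15670) rose to 20.5, 19.1 and 26.3 FPKM with mannitol, against 0.897, 4.25 and 1.37 FPKM without (log2 2.99), and PP2C30 to 14, 15.3 and 23.3 FPKM with mannitol, against 2.22, 4.5 and 2.01 FPKM without (log2 2.27). Of the 9 clade A members 2, PP2C49 and PP2C51, met the filter through the mannitol libraries alone. Of the other 7, 6 were higher and none was lower, with a median log2 change of 1.94. The member that did not pass was PP2C53, at 11.2 FPKM with mannitol and 11 FPKM without on average, named after its values were seen.

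Among the SnRK2 kinases, SAPK6 (LOC_Os02g34600) rose to 34.7, 32.7 and 30.2 FPKM with mannitol, against 8.91, 9.89 and 8.58 FPKM without (log2 1.73), and SAPK4 to 104, 77.6 and 88.2 FPKM with mannitol, against 44.4, 45.2 and 45 FPKM without (log2 0.97). Of 10 SnRK2 genes 6 were higher and none lower, but the median change was small (log2 0.21). Under the other settings tried, 4 to 6 were higher and 0 to 1 lower. The ABA receptor gene PYL6 (LOC_Os03g18600) fell to 15.4, 13.2 and 11.9 FPKM with mannitol, against 41.3, 50.7 and 44.8 FPKM without (log2 -1.69), and PYL1 averaged 35 FPKM with mannitol and 44.6 FPKM without (log2 -0.35). The third receptor among the members did not pass. NCED3, whose enzyme makes the rate-limiting cut in ABA synthesis, was at 2.34, 2.85 and 3.65 FPKM with mannitol and at 0.147, 0.329 and 0.0773 FPKM without, and it met the filter through the mannitol libraries alone. Of the other 7 genes for ABA synthesis and breakdown 3 were higher and none lower.

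Transcription factors of drought and ABA responses were higher in 16 of 19 cases and lower in none, with a median log2 change of 1.23; 3 further members met the filter through the mannitol libraries alone. NAC10 (LOC_Os11g03300) rose to 19.6 ± 3.96 FPKM in raf-b2/3 mannitol seedlings, against 1.64 ± 0.31 FPKM in raf-b2/3 controls (SD, n = 3 each; log2 2.95). SNAC1 (LOC_Os03g60080), known for drought tolerance when overexpressed, rose to 110, 110 and 115 FPKM with mannitol, against 11.2, 29.5 and 13.5 FPKM without (log2 2.69). HOX24 (LOC_Os02g43330), a homeodomain-leucine zipper factor and 1 of these 3, was at 4.25, 4.38 and 11.2 FPKM with mannitol and at 0.0983, 0.884 and 0.154 FPKM without, with raf-b2/3 mannitol 3 well above the other 2 mannitol libraries. AP59, of the AP2/ERF family, rose to 11.4, 13.1 and 10.1 FPKM with mannitol, against 1.17, 1.91 and 1.21 FPKM without (log2 2.38).

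LEA and dehydrin genes, whose products protect proteins and membranes of drying cells, were higher in 6 of 6 members (median log2 1.82), apart from LEA17, which met the filter through the mannitol libraries alone. RAB16D (LOC_Os11g26750) was at 22.6, 22.2 and 42.2 FPKM in raf-b2/3 mannitol seedlings and at 1.35, 1.35 and 2.22 FPKM in raf-b2/3 control seedlings (log2 3.46, SE 0.26, limma adjusted p 3.9e-07). RAB16A was at 34.4, 51.9 and 89.7 FPKM with mannitol and at 8.42, 5.5 and 7.22 FPKM without (log2 2.80). LEA3-1 (LOC_Os05g46480) was at 60.6, 79.3 and 112 FPKM with mannitol and at 20.5, 40.8 and 19.1 FPKM without (log2 1.65). LEA17 was at 4.6, 9.55 and 14.8 FPKM with mannitol and at 0.654, 0.512 and 0.72 FPKM without. In each of these genes raf-b2/3 mannitol 3 was the highest library. RAB16A to RAB16D are close paralogs and may share reads.

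SALT (LOC_Os01g24710), a mannose-binding lectin gene induced by salt, was among the most abundant risers, at 1478, 1223 and 1124 FPKM with mannitol and 201, 241 and 169 FPKM without (log2 2.64). JIOSPR10, of the PR10 family, was at 399, 396 and 293 FPKM with mannitol and at 95.4, 136 and 121 FPKM without (log2 1.62). Of the 8 pathogenesis-related and single stress markers 5 were higher and 1 lower. The lower one, PR1A, averaged 67.2 FPKM with mannitol and 114 FPKM without (log2 -0.79) and no longer passed when raf-b2/3 mannitol 3, raf-b2/3 control 2 or raf-b2/3 control 3 was left out (log2 -0.59, -0.78 and -0.75, limma adjusted p up to 0.105).

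Most jasmonate genes were higher. JAZ proteins, encoded by TIFY genes, repress jasmonate responses and are themselves induced by the hormone. Of the 11 JAZ members 1, TIFY9, met the filter through the mannitol libraries alone; the other 10 were higher, with a median log2 change of 1.18. TIFY11C (LOC_Os03g08320) rose to 29.4, 31.9 and 24.8 FPKM, against 3.27, 10 and 3.21 FPKM in raf-b2/3 controls (log2 2.34), and TIFY11D (LOC_Os10g25290) to 33.9, 32.8 and 25.9 FPKM with mannitol, against 3.62, 10.6 and 5.08 FPKM without (log2 2.2). In both, raf-b2/3 control 2 was the highest control. OPR1 (LOC_Os06g11290), of the oxophytodienoate reductase family, rose to 66, 61.9 and 56.8 FPKM with mannitol, against 5.75, 12.3 and 5.49 FPKM without (log2 2.90), and the jasmonate-responsive factor gene JAMYB rose to 30.2, 26.4 and 22.9 FPKM with mannitol, against 4.44, 6.79 and 3.57 FPKM without (log2 2.24). Of 12 jasmonate synthesis and signalling genes 10 were higher and none lower.

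WRKY factors, which act mainly in defence and stress, were higher in 13 of 14 members (median log2 1.17), apart from WRKY28, which met the filter through the mannitol libraries alone. WRKY71 (LOC_Os02g08440) was at 35.4, 34.9 and 32.9 FPKM in raf-b2/3 mannitol seedlings and at 2.66, 6.11 and 2.83 FPKM in raf-b2/3 control seedlings (log2 2.93). WRKY72 was at 13.2, 15.4 and 12 FPKM with mannitol and at 1.61, 4.17 and 1.98 FPKM without (log2 2.08), and WRKY28 at 4.58, 6.38 and 3.75 FPKM with mannitol and at 0.115, 0.804 and 0.308 FPKM without. WRKY47 was the exception and fell to 1.09, 1.61 and 1.5 FPKM with mannitol, against 4.03, 3.33 and 4.25 FPKM without (log2 -1.02). For WRKY71, WRKY72 and WRKY28, raf-b2/3 control 2 was again the highest control library.

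Heat shock factors rose in 14 of 15 cases (median log2 0.68), apart from HSFA7, which met the filter through the mannitol libraries alone. HSFB1 (LOC_Os09g28354) averaged 21.1 ± 4.34 FPKM with mannitol and 5.4 ± 0.07 FPKM without (SD, n = 3 each; log2 1.77), and HSFA4D averaged 4.8 FPKM with mannitol and 0.986 FPKM without (log2 1.53). Among heat shock proteins, the chaperones these factors control, 9 of 14 were higher and 1 lower, but only 5 were higher without raf-b2/3 mannitol 2 or without raf-b2/3 control 3. The small heat shock protein gene LOC_Os03g16020 rose to 47.2, 51.4 and 35.6 FPKM with mannitol, against 10.4, 25.6 and 12.1 FPKM without (log2 1.51), and another, LOC_Os04g36750, fell to 1.1, 2.57 and 2.23 FPKM with mannitol, against 7.18, 4.56 and 5.36 FPKM without (log2 -1.19).

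Of the kinases besides SnRK2, MPK3 (LOC_Os03g17700), a stress-activated MAP kinase, rose to 44.1, 50.2 and 41 FPKM, against 9.05, 14 and 9.96 FPKM in raf-b2/3 controls (log2 1.96). CIPK15, a partner of calcium sensors, rose to 183, 119 and 115 FPKM with mannitol, against 37.9, 55.2 and 38 FPKM without (log2 1.64). Of 12 Raf-like, MAP and calcium-sensor kinases 6 were higher and none lower. RBOHI (LOC_Os11g33120), an NADPH oxidase that makes superoxide outside the cell, rose to 45.2 ± 6.32 FPKM with mannitol, against 15 ± 2.12 FPKM without (SD, n = 3 each; log2 1.53). Besides RBOHD, which met the filter through the mannitol libraries alone, 3 of 8 such oxidases were higher and 1, RBOHF, was lower. Of all members 36% were higher and 27% lower. Of 15 antioxidant enzymes 2 were higher, 3 lower and 10 did not pass. The largest changes among those past the test were in SODCC2, a cytosolic superoxide dismutase (60.9 FPKM with mannitol and 37 FPKM without on average, log2 0.68), and in SODCP, its plastid counterpart (69 FPKM with mannitol and 107 FPKM without, log2 -0.66).

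Cytokinin response genes fell. Type-A response regulators are switched on within minutes by cytokinin and dampen its signalling, so their transcripts are used as a readout of the pathway. RR10 (LOC_Os12g04500) was at 4.73, 4.44 and 6.07 FPKM in raf-b2/3 mannitol seedlings and at 53.5, 44.2 and 56.1 FPKM in raf-b2/3 control seedlings (log2 -3.11, SE 0.14, limma adjusted p 1.5e-08). RR9 (LOC_Os11g04720) was at 3.58, 3.81 and 3.98 FPKM with mannitol and at 28, 24 and 29.9 FPKM without (log2 -2.56). RR1 and RR2 fell by log2 changes of -2.34 and -2.47. Of 7 type-A members 6 were lower and none higher, with a median log2 change of -2.34. Of the cytokinin oxidases, which degrade the hormone, CKX3 averaged 1.08 FPKM with mannitol and 5.17 FPKM without (log2 -1.58), and CKX11 averaged 24.8 FPKM with mannitol and 10.5 FPKM without (log2 1.16). Besides CKX9, which met the filter through the control libraries alone, 2 of 5 genes for cytokinin activation and breakdown were higher and 2 lower.

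Gibberellin genes moved both ways. GA2OX3 (LOC_Os01g55240), which inactivates gibberellin, rose to 22, 16.7 and 19.9 FPKM, against 2.14, 3.2 and 3.06 FPKM in raf-b2/3 controls (log2 2.44). The receptor gene GID1 rose to 56, 47.5 and 60.4 FPKM with mannitol, against 18.6, 22.8 and 21.9 FPKM without (log2 1.33). The synthesis genes KAO and GA20OX1 averaged 5.02 and 3.13 FPKM with mannitol and 14 and 8.64 FPKM without (log2 -1.35 and -1.21). Besides GA3OX2, which met the filter through the control libraries alone, 4 of 12 genes of the list were higher and 4 lower. These shares are near the 36% higher and 27% lower of all members. For auxin, IAA20 (LOC_Os06g07040), a repressor of auxin responses, rose to 11.9, 12.8 and 13.8 FPKM with mannitol, against 2.76, 2.18 and 1.99 FPKM without (log2 2.07), and IAA14 averaged 3.61 FPKM with mannitol and 8.32 FPKM without (log2 -1.01). Of 24 Aux/IAA and auxin transport genes 10 were higher and 6 lower, also near the shares of all members. For ethylene, the synthase gene ACS2 rose to 4.42, 4.61 and 2.93 FPKM with mannitol, against 0.421, 1.15 and 0.803 FPKM without (log2 1.48), with 6 of 12 members higher and 4 lower. DWARF4, which acts in brassinosteroid synthesis, fell to 1.05, 1 and 1.2 FPKM with mannitol, against 4.59, 3.29 and 4.88 FPKM without (log2 -1.32), and D17, which acts in strigolactone synthesis, averaged 5.93 FPKM with mannitol and 2.07 FPKM without (log2 1.12); 5 of the 11 genes of these 2 hormones were lower and 2 higher.

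Cell wall genes were divided. The beta-expansin gene EXPB11 (LOC_Os02g44108), whose product loosens walls, rose to 65.8, 102 and 66.6 FPKM, against 26.3, 23.9 and 25.5 FPKM in raf-b2/3 controls (log2 1.56). EXPA5 rose to 35.3 ± 8.95 FPKM with mannitol, against 10.2 ± 1.87 FPKM without (SD, n = 3 each; log2 1.69), and EXPA6 averaged 9.21 FPKM with mannitol and 3.04 FPKM without (log2 1.33). EXPB3 fell to 43.7, 59 and 49.5 FPKM with mannitol, against 87.6, 88 and 92.5 FPKM without (log2 -0.82). Besides EXPA17, which met the filter through the control libraries alone, 3 of 10 alpha-expansins were higher and 3 lower. These shares are near the 36% higher and 27% lower of all members. Of 7 beta-expansins 1 was higher and 2 lower, with 1 lower without raf-b2/3 mannitol 1 or raf-b2/3 control 2 and 4 lower without WT control 2. Of 9 cellulose synthases 6 did not pass the test. In the phenylpropanoid pathway, which feeds lignin, 4CL5 (LOC_Os08g34790), a coumarate-CoA ligase, rose to 18.8, 19.7 and 15.2 FPKM with mannitol, against 2.45, 3.73 and 2.52 FPKM without (log2 2.28), and PAL4, which makes the entry step, rose to 40.4, 41.1 and 30.6 FPKM with mannitol, against 9.81, 10.1 and 10.1 FPKM without (log2 1.79). The paralogs 4CL1 and 4CL2 fell by log2 changes of -0.87 and -0.90. Besides C4H2, which met the filter through the mannitol libraries alone, 8 of 14 members were higher and 3 lower. Of the 5 wax genes only WSL1 passed the test, at 24.8 FPKM with mannitol and 33.4 FPKM without on average (log2 -0.42).

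Most of the listed cell division genes were lower. PCNA (LOC_Os02g56130), the sliding clamp of DNA polymerase, was at 23.6, 19.9 and 20.3 FPKM in raf-b2/3 mannitol seedlings and at 60.2, 70.1 and 68.4 FPKM in raf-b2/3 control seedlings (log2 -1.60, SE 0.10, limma adjusted p 1.0e-07). MCM2, a subunit of the replicative helicase, was at 10.4, 8.39 and 8.75 FPKM with mannitol and at 19.7, 23.5 and 21 FPKM without (log2 -1.14). All 9 DNA replication genes were lower, over a narrow range of log2 changes, -1.60 to -0.86. CDKB2-1, a mitotic cyclin-dependent kinase, averaged 14.8 ± 1.0 FPKM with mannitol and 32.8 ± 3.1 FPKM without (SD, n = 3 each; log2 -1.10), and 6 of 7 cyclin and kinase genes were lower (5 without raf-b2/3 mannitol 3 or raf-b2/3 control 2).

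In the chloroplast, genes of carbon fixation fell while most of those of the light reactions did not pass the test. RBCS2 (LOC_Os12g17600), a small subunit of Rubisco, was at 4498, 5082 and 6023 FPKM in raf-b2/3 mannitol seedlings and at 11610, 10580 and 12290 FPKM in raf-b2/3 control seedlings (log2 -1.15, SE 0.18, limma adjusted p 1.2e-04). Rubisco activase, RCA (LOC_Os11g47970), was at 2297, 2253 and 1946 FPKM with mannitol and at 4100, 4514 and 4768 FPKM without (log2 -1.04). Of 10 Rubisco and Calvin cycle genes 9 were lower and none higher (median log2 -0.58). Under quantile normalization 7 were lower and 1 higher: RBCS3, at a log2 change of -0.46 as deposited (limma adjusted p 0.0196), turned to 0.37 (adjusted p 0.0105), and RBCS2 came to -0.37. RBCS3 also missed the threshold without raf-b2/3 mannitol 1, raf-b2/3 mannitol 2 or raf-b2/3 control 3 (log2 -0.40, -0.45 and -0.41, limma adjusted p up to 0.0692). Of 22 light-harvesting and photosystem genes 16 did not pass, 4 were higher and 2 lower, and the median log2 change was 0.12. PSAL of photosystem I and LHCB2.1 of the photosystem II antenna were higher by log2 changes of 0.46 and 0.44, and LHCB6 was lower by a log2 change of -0.44; with WT control 2 and raf-b2/3 mannitol 3 both left out, 2 genes of the list were higher, and without raf-b2/3 mannitol 1, raf-b2/3 control 2 or raf-b2/3 control 3, 1 was lower.

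Chlorophyll synthesis genes moved in both directions. CHLD and CHLI, subunits of the magnesium chelatase, fell, while CHLH, the third subunit, did not pass the test (log2 -0.03, limma adjusted p 0.75). CHLD (LOC_Os03g59640) was at 35.8, 51.4 and 42.8 FPKM with mannitol and at 111, 108 and 115 FPKM without (log2 -1.36), and CHLI was at 54.1, 74.4 and 69.1 FPKM with mannitol and at 150.4, 146 and 148 FPKM without (log2 -1.17). PORA, a protochlorophyllide reductase, and CAO1, which makes chlorophyll b, rose by log2 changes of 0.60 and 0.53. In all, 5 of 11 were lower and 2 higher. Breakdown genes rose: SGR (LOC_Os09g36200), the stay-green gene that starts chlorophyll loss, was at 13.1, 10.8 and 11.5 FPKM with mannitol and at 3.13, 3.21 and 4.01 FPKM without (log2 1.53), and PAO, which opens the pigment ring, averaged 35 FPKM with mannitol and 14.2 FPKM without (log2 1.23). Of 6 breakdown genes 5 were higher, and NOL was lower (log2 -0.79). The summed shoot markers, given above, fell in the same libraries; they include RBCS2 and RCA, and 4 of the 7 did not pass the test. The circadian clock genes moved little, with 2 of 10 higher, 2 lower and log2 changes between -0.40 and 0.48.

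Outside the lists, LOC_Os06g11200 had FPKM values of 53.3, 48.4 and 32.6 in raf-b2/3 mannitol seedlings and of 0.0519, 0.199 and 0.051 in raf-b2/3 control seedlings. It met the filter through the mannitol libraries alone, so its response is given with no test. LOC_Os01g06310 was at 58.7, 85.5 and 74.2 FPKM with mannitol and at 5.87, 1.3 and 0.892 FPKM without (log2 4.55). LOC_Os01g40560 fell to 1.76, 0.955 and 0.789 FPKM with mannitol, against 86.6, 102 and 98.3 FPKM without (log2 -5.50). LOC_Os06g07250 fell to 3.58, 1.85 and 3.36 FPKM with mannitol, against 160, 71 and 183 FPKM without (log2 -5.06), and it missed the threshold by limma-voom (log2 -5.58, adjusted p 0.0508). The table pairs these 4 loci with no gene name.

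Where the raf-b2/3 response departed from that of WT was tested as the genotype by mannitol interaction, the log2 response of raf-b2/3 minus that of WT. Of the members, 550 (2.54%) passed at an adjusted p under 0.05, 201 of them higher in raf-b2/3 (0.929%) and 349 lower (1.61%). The filter on the raf-b2/3 libraries leaves out loci that reached 1 FPKM in WT libraries alone. With the filter on all 12 libraries 666 passed, 228 higher and 438 lower. With no filter 636 passed, 210 higher and 426 lower. Among the 473 named members 15 were higher and 21 lower. Of these, TIFY9 (higher), HSFA7 and PP2C51 (both lower) met the filter through the mannitol libraries alone, so their calls support nothing. Leaving out single libraries moved the interaction count between 219 (without WT mannitol 1) and 661 (without raf-b2/3 mannitol 3). It was also 273 without raf-b2/3 mannitol 2, 318 without raf-b2/3 control 1, 292 without raf-b2/3 control 3 and 269 without WT mannitol 2. With WT control 2 and raf-b2/3 mannitol 3 both left out it was 747, with 370 higher and 377 lower. Without WT control 2 alone 184 were higher and 292 lower, and without raf-b2/3 mannitol 3 alone 288 were higher and 373 lower. The excess of lower genes thus nearly vanished with both left out, but not with either alone. Among the named genes 11 passed under every setting tried, and these are described first.

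**Figure D3:**
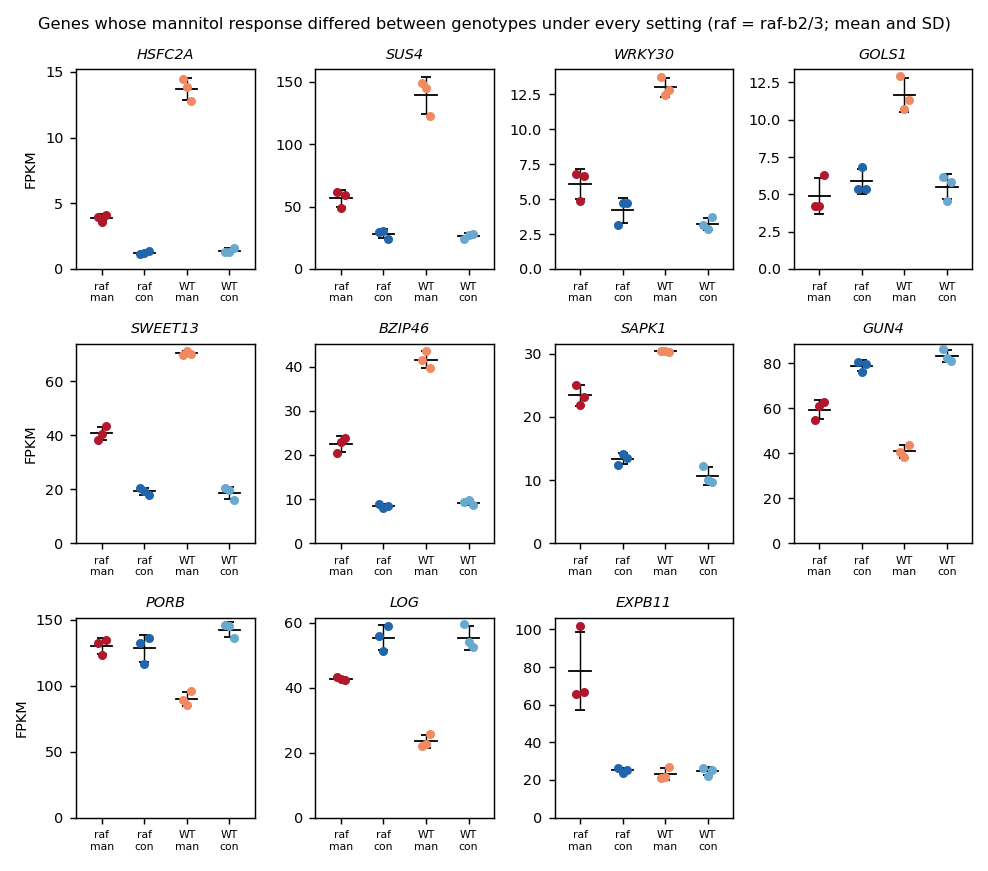
FPKM in the 3 libraries of each group, with mean and SD, for the 11 named genes whose mannitol response differed between genotypes under every setting tried; from left to right raf-b2/3 mannitol, raf-b2/3 control, WT mannitol and WT control, each axis from 0. With mannitol HSFC2A averages 3.89 FPKM in raf-b2/3 and 13.7 FPKM in WT, against 1.25 and 1.4 FPKM in the raf-b2/3 and WT controls.

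Of these 11, 7 responded less positively in raf-b2/3. HSFC2A (LOC_Os02g13800), a heat shock factor, reached 3.94, 3.6 and 4.14 FPKM in raf-b2/3 mannitol seedlings, against 14.4, 13.8 and 12.8 FPKM in WT mannitol seedlings (interaction log2 -1.49, SE 0.13, limma adjusted p 5.9e-04). SUS4 (LOC_Os03g22120), a sucrose synthase, reached 61.6, 49 and 59.2 FPKM in raf-b2/3, against 149, 145 and 122 FPKM in WT (interaction log2 -1.37). SWEET13 reached 38.4, 40.6 and 43.4 FPKM in raf-b2/3, against 69.8, 71.3 and 70.2 FPKM in WT (interaction log2 -0.82). BZIP46 (LOC_Os06g10880), a factor that ABA signalling activates through SnRK2 kinases, reached 20.4, 22.9 and 23.9 FPKM in raf-b2/3, against 41.5, 43.4 and 39.6 FPKM in WT (interaction log2 -0.75). These 4 still rose in raf-b2/3, by log2 changes of 1.12, 0.98, 1.05 and 1.31.

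SAPK1, an SnRK2 kinase gene, reached 23.4 ± 1.62 FPKM in raf-b2/3 mannitol seedlings, against 30.4 ± 0.13 FPKM in WT mannitol seedlings (interaction log2 -0.67). WRKY30 reached 6.76, 4.87 and 6.62 FPKM in raf-b2/3, against 13.7, 12.4 and 12.8 FPKM in WT (interaction log2 -1.28), and its own rise in raf-b2/3 was small (log2 0.45, limma adjusted p 0.014) and was lost without raf-b2/3 mannitol 1, raf-b2/3 mannitol 3 or raf-b2/3 control 1 (log2 0.38, 0.39 and 0.30). GOLS1 was at 4.24, 4.21 and 6.31 FPKM in raf-b2/3, against 12.9, 10.7 and 11.3 FPKM in WT (interaction log2 -1.19), with no change past the test in raf-b2/3 itself.

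Among the 11, EXPB11 was the largest departure in the other direction. In raf-b2/3 it was at 65.8, 102 and 66.6 FPKM with mannitol and at 26.3, 23.9 and 25.5 FPKM without; in WT it was at 21.1, 21.4 and 26.9 FPKM with mannitol and at 26.5, 22.2 and 25.4 FPKM without (interaction log2 1.66, SE 0.21, limma adjusted p 0.0024). LOG (LOC_Os01g40630), which activates cytokinins, was at 43.2, 42.8 and 42.4 FPKM in raf-b2/3 mannitol seedlings and at 22, 22.8 and 25.8 FPKM in WT mannitol seedlings (interaction log2 0.84). Both chlorophyll synthesis genes among the 11 were higher with mannitol in raf-b2/3 than in WT. GUN4, an activator of the magnesium chelatase, was at 54.7, 60.8 and 62.8 FPKM in raf-b2/3, against 40.4, 38.3 and 43.8 FPKM in WT (interaction log2 0.61), and PORB, a protochlorophyllide reductase, was at 133, 123 and 135 FPKM in raf-b2/3, against 89.1, 85.5 and 95.9 FPKM in WT (interaction log2 0.68).

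Of the 7 LEA and dehydrin members 3 passed the interaction, each with a smaller rise in raf-b2/3. RAB16D was at 22.6, 22.2 and 42.2 FPKM in raf-b2/3 mannitol seedlings and at 179, 229 and 151 FPKM in WT mannitol seedlings (interaction log2 -3.27, SE 0.36, limma adjusted p 0.0013). By limma-voom this call was lost (log2 -3.93, adjusted p 0.0584). LEA3-1 was at 60.6, 79.3 and 112 FPKM in raf-b2/3, against 562, 669 and 466 FPKM in WT (interaction log2 -3.11), and RAB16C averaged 8.54 ± 6.35 FPKM in raf-b2/3 and 134 ± 24.9 FPKM in WT (SD, n = 3 each; interaction log2 -2.89). For LEA3-1 and RAB16C the call ended when any of 8 and 5 single libraries was left out, with adjusted p up to 0.0888 and 0.0772 and log2 values from -3.30 to -2.77 and from -2.90 to -2.75. Among the phosphatases, PP2C51 was at 1.64, 1.9 and 2.5 FPKM in raf-b2/3, against 9.53, 9.04 and 8.22 FPKM in WT (interaction log2 -1.42). The call was lost with a pseudocount of 0.1 (log2 -1.04, adjusted p 0.265) and by limma-voom (log2 -0.62, adjusted p 0.67). PP2C51 met the filter through the raf-b2/3 mannitol libraries alone, so its call supports nothing. PP2C08 also rose less in raf-b2/3 (interaction log2 -0.87, limma adjusted p 0.036), a call lost in 14 of the 20 other settings. PP2C09, with an interaction log2 of 0.01, responded by 3.33 in raf-b2/3 and 3.32 in WT. Over all 9 clade A members, PP2C49 and PP2C51 included, the median log2 change was 1.94 in raf-b2/3 and 2.77 in WT.

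**Figure D4:**
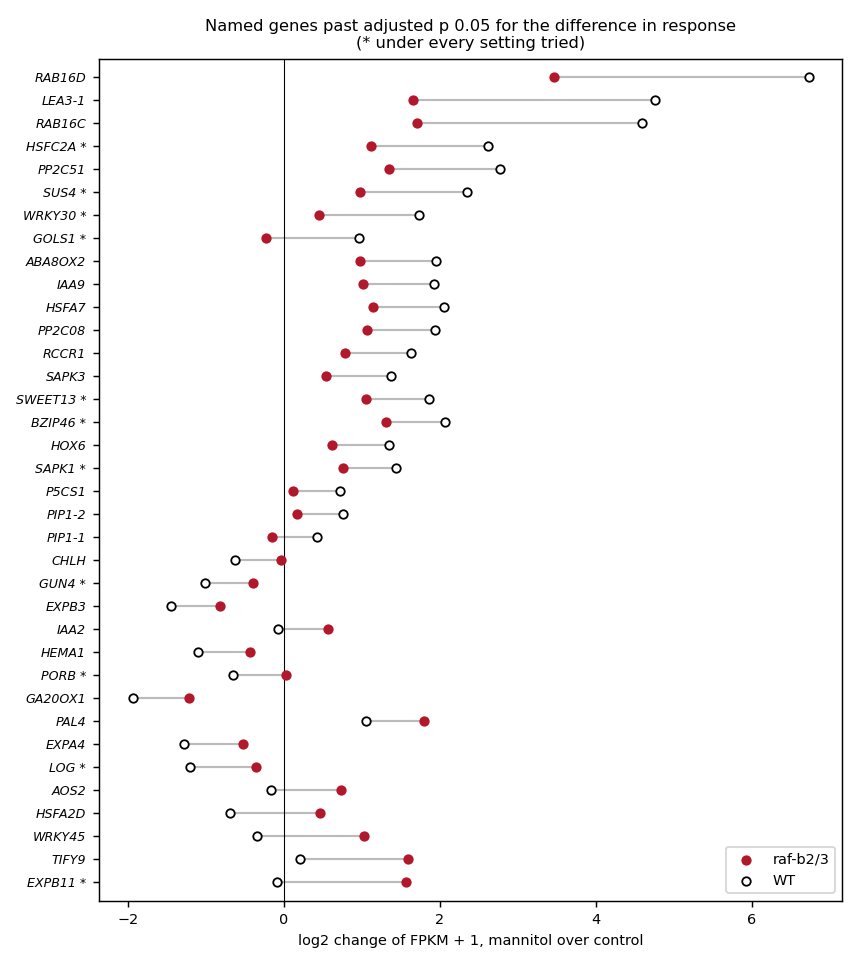
Log2 change of FPKM + 1 with mannitol in raf-b2/3 (filled) and WT (open) for the 36 named genes past a limma adjusted p of 0.05 for the difference between the responses; 11 marked with an asterisk passed under every setting tried. RAB16D, at 3.46 in raf-b2/3 and 6.73 in WT, is at the top, and EXPB11, at 1.56 and -0.10, is at the bottom. TIFY9, HSFA7 and PP2C51 met the filter through the raf-b2/3 mannitol libraries alone.

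For 8 genes described above with large responses in raf-b2/3, picked after their values were seen, the interaction did not pass the test. The interaction log2 was 0.90 for PRODH (limma adjusted p 0.09), -0.96 for INV3 (0.14), -0.53 for LSI2 (0.75), -0.69 for YSL15 (0.8), 0.68 for RR10 (0.11), 0.32 for WRKY71 (0.66), -0.05 for PCNA (0.91) and 0.22 for RBCS2 (0.74). Their SEs ranged from 0.14 for PCNA to 0.99 for YSL15, so differences of these sizes could not be told from no difference. The unnamed locus LOC_Os06g11200 had an interaction log2 of 1.90, which was 1.48 with a pseudocount of 0.1 and 0.25 by limma-voom. It met the filter through the raf-b2/3 mannitol libraries alone, which favours a positive value, so no test is given. LSI1 had an interaction log2 of -2.15 (SE 0.56, adjusted p 0.066); in WT control 2 it was at 53.3 FPKM, against 200 and 216 FPKM in the other WT control libraries.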

How the data were processed

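Messenger RNA of whole rice seedlings was sequenced in 12 libraries, 3 in each of 4 groups, with a directional kit; the strand setting of the counting is not given in the sources used here. The authors deposited FPKM values per locus, the authors' mean FPKM of each group, and log2 fold changes and p-values of their own, with no statement of whether those p-values are adjusted. Trimmomatic, DESeq2, edgeR and the build IRGSP-1.0 are named without roles in the submitters' processing notes.

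Loci with an FPKM of 1 or more in at least 3 of the 6 raf-b2/3 libraries were kept. One limma-trend model (limma 3.58.1 in R 4.3.3) with a mean for each of the 4 groups was fitted to log2(FPKM + 1) of all 12 libraries, since the groups then share an estimate of spread, and p-values were adjusted over all 21640 members by Benjamini-Hochberg. Fold changes are on the log2(FPKM + 1) scale, which understates changes of low genes. The FPKM values of all 29358 loci came out as whole fragments to within 0.01 of a fragment, and limma-voom on these fragments was an alternative. The other alternatives changed the pseudocount, the filter, the libraries and the scaling. The scripts were tested on simulated data.

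The members and the 46 gene lists were chosen with earlier results of these data known. Gene names rest on 508 list entries, of which 360 matched the reference annotation by chromosome and order and 148, such as PRODH, INV3, LSI3 and SNAC1, had no symbol there. Text names follow a rule: in each list the 2 largest rises and falls past the test, every member past it with a log2 change of 2 or more, every member past it in the interaction, and the 6 most abundant list members; then DSM1 and the unnamed loci with the 2 largest rises and falls. It gives 185 genes, of which the text names a selection made with their values known. AMY1A, PP2C53, RCC3, GLUA2 and HKT1-5 fall outside it. Near-identical paralogs (such as RAB16, RBCS, NAS, TIFY11, PAL and EXPB genes) may share reads, and the other lists were not checked for such pairs.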

Additional observations from a re-analysis of the deposited data

Results flagged for a closer look

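The mannitol response of 36 named genes differed between raf-b2/3 and WT by the interaction test (limma adjusted p under 0.05). Each value below is the log2 response of raf-b2/3 minus that of WT. Negative values mean a response less positive in raf-b2/3. TIFY9, HSFA7 and PP2C51 met the filter through the raf-b2/3 mannitol libraries alone, so their calls support nothing.

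In protective proteins the difference was -3.27 for RAB16D, -3.11 for LEA3-1 and -2.89 for RAB16C. In ABA signalling and breakdown it was -1.42 for PP2C51, -0.87 for PP2C08, -0.67 for SAPK1, -0.83 for SAPK3 and -0.98 for ABA8OX2. Among transcription factors it was -0.75 for BZIP46, -0.74 for HOX6, -1.28 for WRKY30, 1.38 for WRKY45, -1.49 for HSFC2A, -0.91 for HSFA7 and 1.15 for HSFA2D.

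In sugar and proline metabolism the difference was -1.37 for SUS4, -0.82 for SWEET13, -1.19 for GOLS1 and -0.60 for P5CS1. The aquaporin genes PIP1-1 and PIP1-2 differed by -0.58 and -0.59. Among hormone genes it was 0.84 for LOG, 0.73 for GA20OX1, 0.65 for IAA2, -0.92 for IAA9, 0.90 for AOS2 and 1.39 for TIFY9. In cell wall and phenylpropanoid genes it was 1.66 for EXPB11, 0.63 for EXPB3, 0.75 for EXPA4 and 0.73 for PAL4. In chlorophyll genes it was 0.61 for GUN4, 0.68 for PORB, 0.67 for HEMA1, 0.59 for CHLH and -0.84 for RCCR1.

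Of these calls 11 held under all 20 other settings: HSFC2A, SUS4, WRKY30, GOLS1, SWEET13, BZIP46, SAPK1, GUN4, PORB, LOG and EXPB11. Others were lost in many of the 20 settings: GA20OX1 in 16, RCCR1 in 15, HSFA7 and PP2C08 in 14, EXPA4 in 13 and HSFA2D in 10. AOS2, LEA3-1, RAB16C, SAPK3 and TIFY9 were lost in 8, EXPB3, HOX6, IAA2 and IAA9 in 7, CHLH in 6 and ABA8OX2 in 4. P5CS1, PIP1-2, PP2C51 and WRKY45 were lost in 2, and HEMA1, PAL4, PIP1-1 and RAB16D in 1.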

How the results depend on the processing

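Counts of the raf-b2/3 response moved little with single libraries left out: 2640 to 2926 in all, 1610 to 1793 higher and 1025 to 1203 lower. The lower count was 1646 with a pseudocount of 0.1 and 2021 by limma-voom. Interaction counts depended on single libraries, at 219 to 661 in all, 65 to 288 higher and 154 to 373 lower. By limma-voom 343 passed, 208 of them lower. With the filter on all 12 libraries 666 passed, 438 of them lower, and with no filter 636 passed, 426 of them lower. With WT control 2 and raf-b2/3 mannitol 3 both left out 747 passed, 370 higher and 377 lower.

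The sign of the log2 change turned for 5 chloroplast genes. For RBCS3 a call reversed: it was at -0.462 (limma adjusted p 0.0196) as deposited and at 0.3675 (adjusted p 0.0105) under quantile normalization. The others did not pass the test as deposited. CAB2R was at 0.0834 under quantile normalization, 0.0692 without raf-b2/3 mannitol 1 and 0.0063 without raf-b2/3 control 3 (-0.1058 to 0.0692 over single libraries). CHLH was at 0.0999 under quantile normalization. LHCB4 was at -0.0124 under median-of-ratios scaling, -0.0263 by limma-voom and -0.0178 without raf-b2/3 control 2 (-0.0178 to 0.1134). PORB was at -0.0476, -0.0617 and -0.0425 in those settings and at -8e-04 without raf-b2/3 mannitol 3, alone or with WT control 2 (-0.0425 to 0.0679 over single libraries). The cause was not tested.

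With the replicate number as a replicate block, 2757 genes changed in raf-b2/3 and 449 passed the interaction (151 higher, 298 lower). Same-numbered raf-b2/3 libraries correlated at -0.342, 0.126 and -0.095 in their deviations, and differently numbered ones at -0.202 to 0.305. With 3 libraries a group these values cannot settle whether any libraries were paired.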
